A study of Homo sapiens with 6 samples.

Results

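The long arm of chromosome 6 (6q) was examined in 3 lists of ChIP-seq peaks, which mark where a protein was bound to DNA. Its members were all listed peaks on hg19 chromosome 6 whose summit, the point of highest signal within a peak, lay at or above 61 Mb. They numbered 112 of 9769 peaks for BRD8 in Calu3, 355 of 9505 for BRD8 in 16HBE14o- and 238 of 16413 for CTCF in Calu3, together 705 of 35687. The arm was picked because its numbers of BRD8 peaks differed between the lines, so those numbers and all BRD8 comparisons between the lines are given as descriptions without a test. Calu3 is an established human lung adenocarcinoma line and 16HBE14o- an established human bronchial epithelial line, both grown untreated in the same medium. BRD8 was precipitated with the same antibody in both lines, and CTCF in Calu3 only. Each of the 3 experiments had 2 replicates, which the authors combined into 1 list by the irreproducible discovery rate, a procedure that keeps peaks ranked alike in both. Values of single replicates were not used here, so there is no replicate spread, the depth behind a list is unknown, and the 95% exact Clopper-Pearson intervals below cover counting error only.

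BRD8 is a bromodomain protein of the NuA4/TIP60 complex, an enzyme assembly that acetylates histones and exchanges histone variants at regulatory DNA. CTCF binds a long DNA motif through its zinc fingers, halts cohesin as it extrudes chromatin loops, and so marks the borders of many chromatin domains. A chromosome arm is read in cytogenetic bands: light bands are generally rich in genes, and darkly stained bands are poorer. Band 6q21 is known to hold PRDM1 and FOXO3, 6q22.31 the gap junction gene GJA1, 6q23.3 MYB and TNFAIP3, and 6q25.3 the ezrin gene EZR and the chromatin gene ARID1B. Peaks were placed in bands and not assigned to genes, because no gene annotation on hg19 was used.

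Averaged over the arm, BRD8 sites of the bronchial line were about as dense as over the genome, though unevenly placed, and those of the adenocarcinoma line were sparse. The arm makes up 110.1 Mb, or 3.63% of the length of the autosomes and X. It held 3.73% of the 16HBE14o- BRD8 list and 1.15% of the Calu3 BRD8 list. Its 16HBE14o- share was 3.26 times its Calu3 share (exact interval from the binomial split of its peaks, 2.63 to 4.07). There were 3.22 16HBE14o- BRD8 peaks per Mb against 3.13 over the genome. Calu3 had 1.02 BRD8 peaks per Mb against 3.22 over the genome. The second Calu3 list was low here too: CTCF had 2.16 peaks per Mb against 5.41, and the arm held 1.45% of that list. On the short arm (6p) the 16HBE14o- share was 1.69 times the Calu3 share (1.39 to 2.07), with 2.70 Calu3 and 4.46 16HBE14o- BRD8 peaks per Mb. A shortage of Calu3 BRD8 peaks was not confined to 6q. Calu3 and 16HBE14o- had 22 and 91 on 18p, 39 and 116 on 21q, and 46 and 126 on 13q. Other arms had the reverse, such as 3q with 820 and 251 and 11p with 251 and 31. Among 40 chromosome arms with at least 20 peaks in each list, 6q stood in place 6 from the lowest for the density of both Calu3 BRD8 and Calu3 CTCF, and in place 18 for 16HBE14o- BRD8. The short CTCF list of the arm moves with the short Calu3 BRD8 list, and its part in the comparisons with CTCF below was not tested.

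No member lay near the 61 Mb limit. In Calu3 the last BRD8 summit before it was at 56.77 Mb (signal 24.16) and the first after it at 71.59 Mb (signal 29.73). In 16HBE14o- these summits were at 58.29 Mb (27.51) and 70.51 Mb (33.26), and in the CTCF list at 58.29 Mb (65.75) and 64.06 Mb (34.13).

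**Figure D1:**
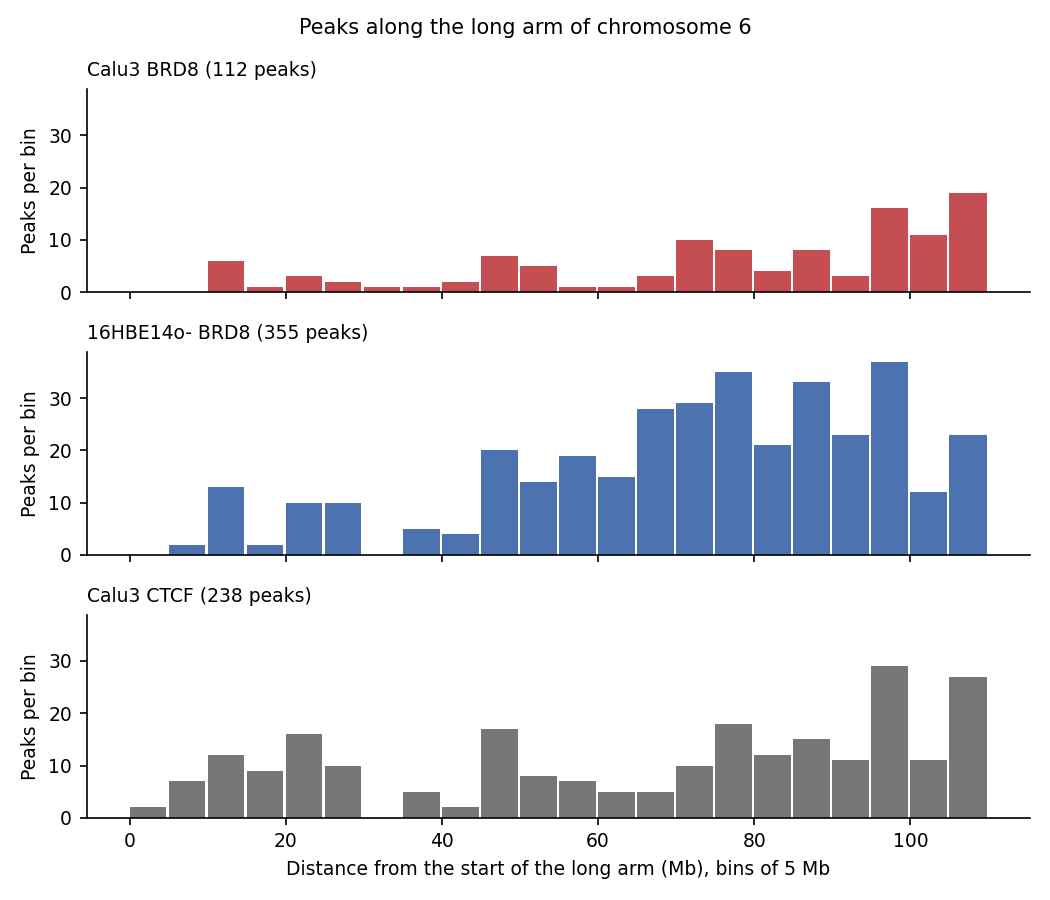
Numbers of peaks per 5 Mb bin along the long arm of chromosome 6 for Calu3 BRD8 (112 peaks), 16HBE14o- BRD8 (355) and Calu3 CTCF (238). The horizontal axis is the distance from the start of the arm in Mb, the last bin runs to the chromosome's end, and the 3 panels share a vertical axis. Calu3 BRD8 stays at 10 peaks or fewer until the last 3 bins, and 16HBE14o- BRD8 reaches 37.

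The arm was divided into 22 bins of 5 Mb from 61 Mb, the last one reaching the end of the chromosome. The 16HBE14o- list had more BRD8 peaks in 20 bins and Calu3 in 1. In the remaining bin, which covers the centromeric band 6q11.1 and the start of 6q12, neither had a peak. Over the 16 bins with at least 10 BRD8 peaks in the lists together, the 16HBE14o- share of the list was between 1.12 and 19.5 times the Calu3 share, with a median of 3.83. It was at least 3 times as large in 9 of these 16 bins; over all arms this was so in 12.1% of such bins, a contrast that the choice of the arm had already used. The numbers of Calu3 and 16HBE14o- BRD8 peaks went up and down together over the 22 bins (Spearman rho = 0.74). Calu3 BRD8 and Calu3 CTCF did so with a rho of 0.79, and 16HBE14o- BRD8 and Calu3 CTCF with 0.65. The bins lie on 1 chromosome arm and come from the same 3 lists, and the rho values are descriptions.

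The Calu3 deficit was not even along the arm. As a ratio it was deepest from 116 to 131 Mb (6q22.1 to 6q23.1), where Calu3 had 5 BRD8 peaks and 16HBE14o- had 62. The 3 bins of this stretch held 1 and 19, 1 and 15, and 3 and 28 peaks in Calu3 and 16HBE14o-. The ratio of list shares over the stretch was 12.7 (5.18 to 40.6). At the far end of the arm the lines were nearly level: from 161 Mb to the end (6q26 and 6q27) there were 30 Calu3 and 35 16HBE14o- BRD8 peaks, a ratio of 1.20 (0.715 to 2.02). The 2 bins there held 11 and 12, and 19 and 23. Several of these 30 Calu3 peaks were paired calls at 1 position, so Calu3 had fewer sites than peaks there. The 355 16HBE14o- peaks of the arm did not overlap each other, so the lines were less level in sites than in peaks. The rest of the arm lay in between. From 61 to 116 Mb Calu3 had 28 and 16HBE14o- 80 BRD8 peaks (ratio 2.94, 1.89 to 4.69), and from 131 to 161 Mb they had 49 and 178 (ratio 3.73, 2.71 to 5.23). By the difference in numbers the largest bin was that from 136 to 141 Mb, with 8 and 35 peaks, within the 131 to 161 Mb stretch. These 4 stretches were drawn after the bins had been seen.

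The difference had 2 sides when set against the genome. From 161 Mb on, Calu3 had 2.97 BRD8 peaks per Mb, close to its 3.22 over the genome. It had 1.63 per Mb from 131 to 161 Mb, 0.333 from 116 to 131 Mb and 0.509 from 61 to 116 Mb. Of the 4 stretches, the 16HBE14o- list was low only in that from 61 to 116 Mb, with 1.45 BRD8 peaks per Mb. The low density did not cover all of it: the bins from 106 to 111 Mb and 111 to 116 Mb held 20 and 14 peaks. The 16HBE14o- list had 4.13 per Mb from 116 to 131 Mb, 5.93 from 131 to 161 Mb and 3.46 beyond, against 3.13 over the genome. So in the 30 Mb before 161 Mb a surplus of 16HBE14o- peaks stood beside a shortage of Calu3 peaks. Calu3 CTCF had 1.60, 1.13, 3.17 and 3.76 peaks per Mb over the 4 stretches in order, below its 5.41 over the genome in each. There were 1.10 CTCF peaks for each 16HBE14o- BRD8 peak from 61 to 116 Mb, 0.274 from 116 to 131 Mb, 0.534 from 131 to 161 Mb and 1.09 beyond.

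**Figure D2:**
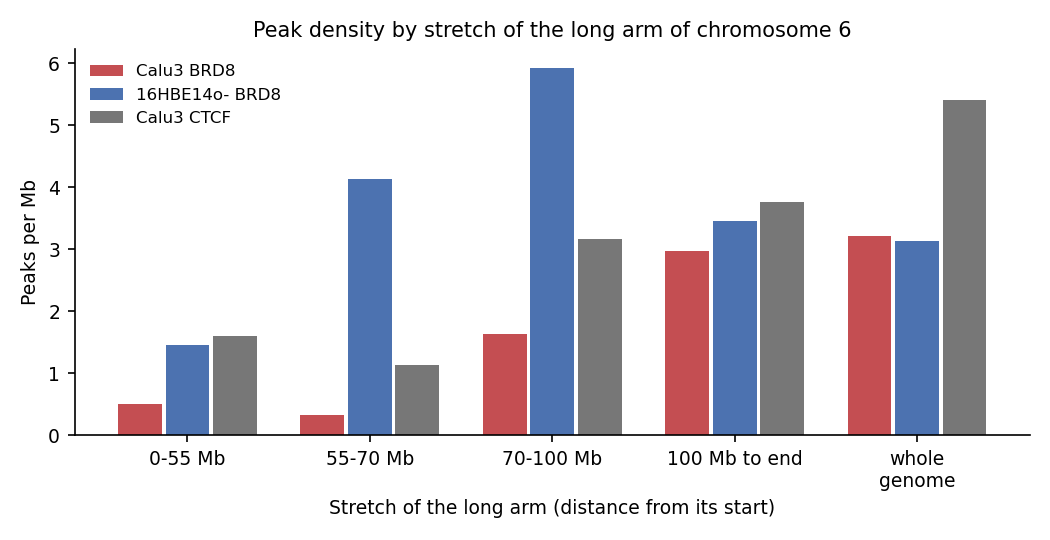
Peaks per Mb of Calu3 BRD8, 16HBE14o- BRD8 and Calu3 CTCF in 4 stretches of the long arm of chromosome 6, named by distance from its start at 61 Mb, and over the whole genome. Calu3 BRD8 has 0.333 peaks per Mb in the second stretch and 2.97 in the last; 16HBE14o- BRD8 is highest in the third stretch, at 5.93.

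Bands show where the peaks lay. Band 6q22.31, 7.6 Mb long and dark, held 1 Calu3 and 23 16HBE14o- BRD8 peaks. The bands after it held 2 and 9 (6q22.32), 1 and 15 (6q22.33) and 0 and 6 (the light band 6q23.1). In 6q24.2, the band of the imprinted gene PLAGL1, there were 1 and 12, and in 6q25.2 there were 1 and 14. Bands with more Calu3 peaks were 6q21 with 13 and 35, 6q25.3 with 16 and 39, 6q26 with 10 and 11, and 6q27 with 20 and 24. The 14 light bands held 67.9% of the Calu3 BRD8 peaks of the arm, 58.9% of the 16HBE14o- BRD8 peaks and 63.4% of the CTCF peaks, on 46.6 Mb. Per Mb, the light bands had 1.63 Calu3 and 4.48 16HBE14o- BRD8 peaks, and the 13 stained bands 0.588 and 2.39. The ratio of list shares was 2.83 in light and 4.17 in stained bands, so the 16HBE14o- share was the larger in both kinds.

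The median distance between neighbouring BRD8 summits on the arm was 334 kb in Calu3 and 112 kb in 16HBE14o-, and 185 kb between CTCF summits. Neighbouring BRD8 summits lay within 10 kb in 22 pairs of Calu3 (19.8% of pairs, 26.6% over the list) and in 28 pairs of 16HBE14o- (7.91%, 12.3% over the list). Overlapping calls were a property of the whole Calu3 list: merging left 95 regions of 112 peaks on the arm (84.8%) and 8184 of 9769 in all (83.8%), while the 355 16HBE14o- peaks of the arm stayed separate. The longest gap without a BRD8 summit ran over 9.38 Mb in Calu3 (summits at 91189189 and 100564793, 6q15 to 6q16.2) and over 6.67 Mb in 16HBE14o- (90680522 and 97345862). The longest CTCF gap on the arm, also 6.67 Mb, lay between summits at 90680538 and 97345831, almost the same interval as in 16HBE14o-. Between 2 neighbouring Calu3 BRD8 summits, up to 25 16HBE14o- BRD8 peaks could lie: those from 127786201 to 132601042 (6q22.33 to 6q23.2, 4.81 Mb), of which 4 met a CTCF peak. A further 17 lay from 121751807 to 126277976 (4.53 Mb), and 14 in the 1.21 Mb from 137114340 to 138323090 in 6q23.3.

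Within its list a peak was ranked by the authors' signal, from 0 for the weakest to 100 for the strongest; signals of different lists may not share a scale and were not compared. Calu3 BRD8 peaks of the arm had a median percentile of 41.9 (quartiles 26.3 and 62.6), and 49 of 112 (43.8%) were in the upper 50% of the list. The 16HBE14o- BRD8 peaks had a median of 53.3 (22.7 and 79.7), with 183 of 355 (51.5%) in the upper 50%. CTCF peaks had a median of 46.2 (19.3 and 73.7). On 6p the medians were 55.2, 46.1 and 55.6 in the same order. The strongest decile of the whole list held 8 Calu3 peaks of 6q and the weakest 11. For 16HBE14o- these were 40 and 40, and for CTCF 22 and 28. By stretch, the median percentile of Calu3 peaks was 40.9, 23.8, 52.9 and 37.5 from the centromere outwards, and of 16HBE14o- peaks 40.5, 53.3, 61.1 and 68.2. The 16HBE14o- order thus rose towards the end of the arm, while the Calu3 peaks near the end were numerous and mostly in the lower 50% of their list.

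The few Calu3 BRD8 sites of the arm were mostly 16HBE14o- sites as well, and the reverse was uncommon. Peaks are said to meet where they overlap by at least 1 bp. Of the Calu3 peaks 84 of 112 (75%, 65.9 to 82.7%) met a 16HBE14o- peak, against 50.1% over the whole Calu3 list. Of the 16HBE14o- peaks 70 of 355 (19.7%, 15.7 to 24.2%) met a Calu3 peak, against 43.4% over that list. Among the 40 arms, 6q had the lowest share in the second direction, next to 4q at 20.3%, and stood in place 4 from the highest in the first. The lowest place was shared closely: 18p at 20.9%, 21q at 21.6%, Xp at 22.1% and 13q at 22.2% also lay inside the 6q interval. On 6q the difference from the whole list was seen in both parts of each BRD8 list by signal. In the upper 50% of the 16HBE14o- list, 52 of 183 peaks of 6q met Calu3 (28.4%, 22 to 35.5%), against 56.1% of all such peaks, and in the lower 50% it was 18 of 172 (10.5%) against 30.7%. Of the 40 peaks in the strongest decile, 16 met Calu3 (40.0%, 24.9 to 56.7%), against 73.3%. In Calu3 the lower 50% met 16HBE14o- in 46 of 63 cases (73.0%, 60.3 to 83.4%), against 38.5%, and the upper 50% in 38 of 49 (77.6%, 63.4 to 88.2%), against 61.6%. These shares depend on how many peaks each line has on the arm, which is what the arm was picked by.

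The share of 16HBE14o- BRD8 peaks met by Calu3 followed the stretches. It was 21.2% from 61 to 116 Mb (17 of 80, 12.9 to 31.8%) and 3.23% from 116 to 131 Mb (2 of 62, 0.393 to 11.2%). It was 18.0% from 131 to 161 Mb (32 of 178, 12.6 to 24.4%) and 54.3% from 161 Mb on (19 of 35, 36.6 to 71.2%). The 43.4% of the whole list lies inside the interval of the last stretch and above those of the other 3. This is a description and not a test, because the stretches were drawn after the BRD8 numbers per bin had been seen. With 5 Calu3 peaks beside 62 of 16HBE14o- from 116 to 131 Mb, a low share there followed from the numbers.

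Where both lines had a BRD8 peak, that of Calu3 more often stood lower in its list than the 16HBE14o- peak in its own. Taking for each of the 70 shared 16HBE14o- peaks the strongest Calu3 peak it met, the median percentile was 50.8 in Calu3 and 77.5 in 16HBE14o-. The median difference, Calu3 minus 16HBE14o-, was -10.8 percentile points (quartiles -39.9 and 2.49), against 3.62 over all 4127 shared sites and 3.49 over the 89 of 6p. Calu3 had the lower percentile at 48 of 70 sites (68.6%), against 43.6% over all shared sites. From 61 to 116 Mb this was so at 10 of 17 sites, and from 116 to 131 Mb at 2 of 2. It was so at 25 of 32 from 131 to 161 Mb and at 11 of 19 from 161 Mb on. Near the end of the arm, where the numbers of peaks were alike, the median difference was -8.90 points (quartiles -35.2 and 7.72). This measure comes from the same contrast as the choice of the arm.

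**Figure D3:**
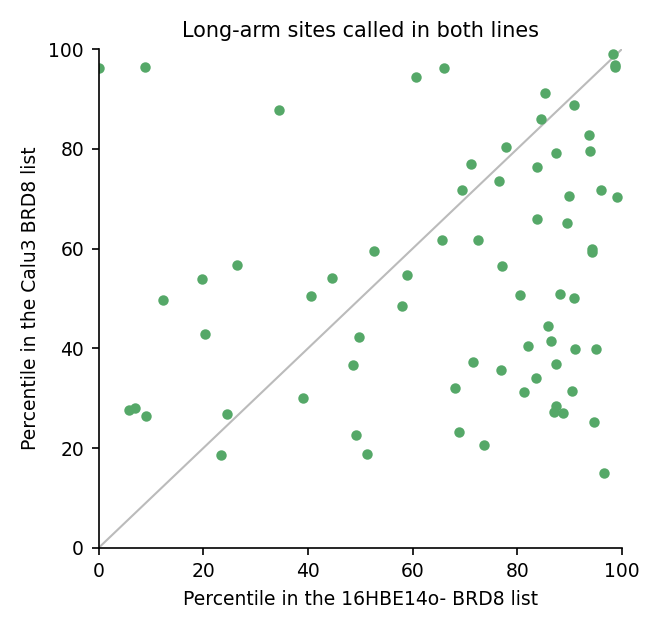
Percentile by signal in the Calu3 BRD8 list (vertical axis) against that in the 16HBE14o- BRD8 list (horizontal axis) for the 70 sites of the long arm of chromosome 6 called in both lines. Each point is a site and the line marks equal percentiles; 48 of 70 points lie below it, 43 of them in the upper 50% of the 16HBE14o- list.

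The share of BRD8 peaks at CTCF was not itself used to choose the arm, but it is taken over the BRD8 peaks whose numbers were used. The CTCF list comes from Calu3 and is short on the arm. Its 238 peaks there, beside 355 16HBE14o- BRD8 peaks, limit how large the 16HBE14o- share can be. The shares at CTCF are therefore descriptions only. Most 16HBE14o- BRD8 peaks of the arm had no listed Calu3 CTCF peak. Of 355 peaks 133 met one (37.5%, 32.4 to 42.7%), against 65.3% over the whole list and 68.8% on 6p (62.9 to 74.2%). Among the 40 arms only Xp, at 32.7%, was lower, but 20p at 38.7% and 21q at 41.4% also lay inside the 6q interval. Just above it were 4p and 4q, both at 43.4%. The share was also below that of the list in the upper 50% by signal, with 89 of 183 (48.6%, 41.2 to 56.1%) against 79.7%, and in the lower 50%, with 44 of 172 (25.6%, 19.2 to 32.8%) against 50.9%. For Calu3 BRD8 the share with CTCF was 69 of 112 (61.6%, 51.9 to 70.6%), against 70.5% over the list, which lies inside the interval. In the upper 50% of the Calu3 list it was 32 of 49 (65.3%, 50.4 to 78.3%), against 83.1%, and in the lower 50% it was 37 of 63 (58.7%, 45.6 to 71.0%), against 57.8%. In the strongest decile of the 16HBE14o- list, 32 of 40 peaks of the arm met CTCF (80.0%, 64.4 to 90.9%), against 92.4%. Of the 8 Calu3 peaks in the strongest decile of their list, 6 met CTCF, against 93.6%, and 7 met 16HBE14o- BRD8, against 80.7%.

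Sites of both lines and of 16HBE14o- alone differed on the arm as they do over the list. Of the 16HBE14o- peaks called in both lines, 51 of 70 met CTCF (72.9%, 60.9 to 82.8%), against 85.8% over the list. Of those of 16HBE14o- alone, 82 of 285 did (28.8%, 23.6 to 34.4%), against 49.5%. Both classes thus had less CTCF on 6q than over the list. For Calu3, 59 of 84 shared peaks met CTCF (70.2%, 59.3 to 79.7%), against 86.6%, and 10 of 28 peaks of Calu3 alone (35.7%, 18.6 to 55.9%), against 54.3%. The 203 peaks of 16HBE14o- alone without CTCF made up 57.2% of its peaks on the arm and 28.6% of its whole list. Their median percentile was 41.2, against 29.4 for that class over the list. After all lists were merged, the arm had 473 regions, and 203 (42.9%) were of this class, against 12.9% of all regions. Regions of all 3 lists numbered 52 (11%, against 16.8%). There were 9 with BRD8 in Calu3 alone and CTCF (1.90%, against 10.6%), 16 with BRD8 in Calu3 alone without CTCF (3.38%, against 8.71%) and 94 with CTCF alone (19.9%, against 35.8%). BRD8 in both lines without CTCF made 18 regions (3.81%, against 2.67%), and BRD8 in 16HBE14o- alone with CTCF made 81 (17.1%, against 12.5%).

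**Figure D4:**
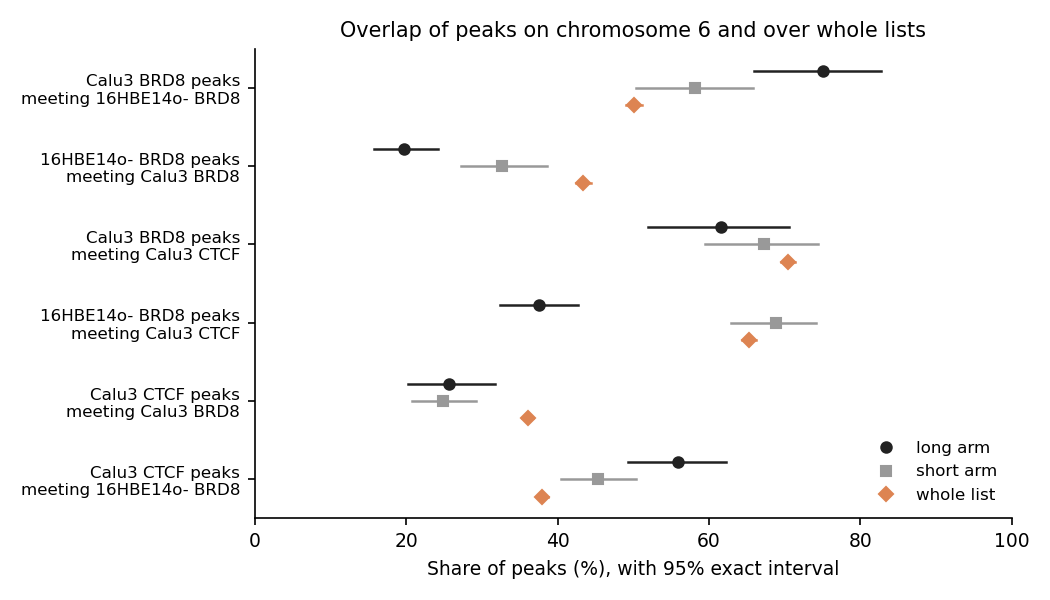
Share of peaks that meet a peak of another list, with 95% exact intervals, for the long arm and the short arm of chromosome 6 and for whole lists. On the long arm 19.7% of 16HBE14o- BRD8 peaks meet Calu3 BRD8 and 37.5% meet Calu3 CTCF, against 43.4% and 65.3% of the whole list.

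The share of 16HBE14o- BRD8 peaks with CTCF also varied along the arm, in the same order of stretches as the share met by Calu3 BRD8. It was 50% from 61 to 116 Mb (40 of 80, 38.6 to 61.4%), 16.1% from 116 to 131 Mb (10 of 62, 8.02 to 27.7%), 33.7% from 131 to 161 Mb (60 of 178, 26.8 to 41.2%) and 65.7% from 161 Mb on (23 of 35, 47.8 to 80.9%). The last value is close to the 65.3% of the whole list. These shares are descriptions only, because the stretches were drawn after the BRD8 numbers had been seen. They are also limited by the CTCF peaks at hand. From the centromere outwards there were 1.10, 0.274, 0.534 and 1.09 of these for each 16HBE14o- BRD8 peak. For 16HBE14o- BRD8 peaks of the arm without CTCF, the median distance to the closest CTCF summit was 119 kb, against 47.6 kb over the list. For Calu3 it was 78.6 kb, against 24.7 kb. Where BRD8 and CTCF met, their summits lay about as close as elsewhere in 16HBE14o-, a median of 17 bp apart (19 bp over the list). In Calu3 the median was 32 bp (37 bp over the list), and no interval was taken for these summit distances. Within 50 bp lay 119 of 133 in 16HBE14o- (89.5%, against 89.3%) and 49 of 69 in Calu3 (71.0%, against 60.5%).

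The share of CTCF peaks that carry BRD8 rests on the numbers of BRD8 peaks by which the arm was picked, so the values by CTCF peak, by CTCF strength and by stretch that follow are descriptions only. Of the arm's 238 CTCF peaks 133 carried BRD8 in 16HBE14o- (55.9%, 49.3 to 62.3%), against 38.0% of all CTCF peaks, and 61 in Calu3 (25.6%, 20.2 to 31.7%), against 36.1%. On 6p these shares were 45.3% (40.5 to 50.3%) and 24.8% (20.8 to 29.2%), so the low Calu3 share was found on both arms. Only 18p, at 68.3%, had a higher 16HBE14o- share among the 40 arms, but other arms came close. Inside the 6q interval also lay 14q at 55.4%, 20q at 54.5%, 20p at 52.2%, 17p at 52.1%, 9q at 51.2% and 5p at 49.7%. BRD8 in both lines was found at 52 CTCF peaks (21.8%, the same percentage as in the list). It was found in 16HBE14o- alone at 81 (34.0%, 28.0 to 40.4%, against 16.3%), in Calu3 alone at 9 (3.78%, 1.74 to 7.06%, against 14.3%) and in neither at 96 (40.3%, 34.0 to 46.9%, against 47.7%). The median CTCF percentile was 64.9 with BRD8 in both lines (76.7 over the list), 59.2 with BRD8 in 16HBE14o- alone (60.2), 43.4 in Calu3 alone (51.7) and 26 in neither (34.1), the same order as over the list.

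The same comparison was made at CTCF peaks of like strength. The CTCF list was cut by signal into 3 equal parts. At the strongest CTCF peaks of the arm, Calu3 BRD8 was called at 25 of 76 (32.9%, 22.5 to 44.6%), against 53.8% over the list, and 16HBE14o- BRD8 at 61 of 76 (80.3%, 69.5 to 88.5%), against 61.1%. At the middle ones these were 22 of 62 (35.5%, 23.7 to 48.7%, against 36.3%) and 36 of 62 (58.1%, 44.8 to 70.5%, against 34.9%). At the weakest they were 14 of 100 (14%, 7.87 to 22.4%, against 18.2%) and 36 of 100 (36.0%, 26.6 to 46.2%, against 18.0%). The 16HBE14o- share was above that of the list in each part, and the Calu3 share lay farthest below it at the strongest CTCF peaks.

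**Figure D5:**
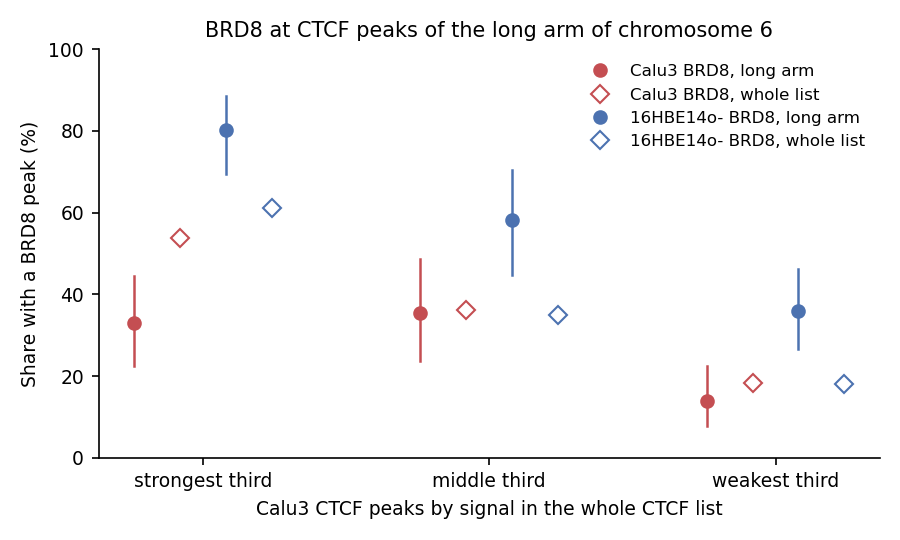
Share of Calu3 CTCF peaks with a BRD8 peak in Calu3 or in 16HBE14o-, in 3 equal parts of the CTCF list by signal, with 95% exact intervals. Filled circles are the long arm of chromosome 6 and open diamonds the whole list; for 16HBE14o- the circles lie above the diamonds in each part, and for Calu3 the circle at the strongest CTCF peaks (32.9%) lies below its diamond (53.8%).

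The same CTCF sites show the contrast along the arm. From 116 to 131 Mb, 10 of 17 CTCF peaks carried 16HBE14o- BRD8 (58.8%, 32.9 to 81.6%) and 1 of 17 Calu3 BRD8 (5.88%, 0.149 to 28.7%). From 161 Mb on, 23 of 38 carried it in 16HBE14o- (60.5%, 43.4 to 76.0%) and 16 of 38 in Calu3 (42.1%, 26.3 to 59.2%). In between, from 131 to 161 Mb, it was 60 of 95 (63.2%) and 26 of 95 (27.4%), and from 61 to 116 Mb 40 of 88 (45.5%) and 18 of 88 (20.5%). The 16HBE14o- share of CTCF sites was thus alike over the outer 3 stretches, and the Calu3 share ran from 5.88% to 42.1%.

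The 116 to 131 Mb stretch can be read site by site. Its 3 strongest CTCF peaks lay at chr6:117996406-117996621 in 6q22.1 (CTCF percentile 89.9), at chr6:126277811-126278107 in 6q22.32 (88.5) and at chr6:125474782-125474947 in 6q22.31 (85.2). In 16HBE14o- all 3 carried BRD8, at percentiles 94.5, 94.2 and 94.9. In Calu3 the 6q22.32 site alone had BRD8, as 2 overlapping peaks at percentiles 59.3 and 7.01. The other Calu3 BRD8 peaks of the stretch lay at chr6:117770991-117771466 (percentile 67.8) and chr6:121751569-121752044 (23.8), neither with a 16HBE14o- or CTCF peak, and at chr6:127785963-127786438 (22.6), with 16HBE14o- BRD8 and no CTCF. The strongest 16HBE14o- BRD8 peak there, chr6:126274253-126274476 (percentile 95.1), met neither Calu3 list, although a CTCF summit lay 0.514 kb away. Another, chr6:125635315-125635538 (percentile 94), was 643 kb from the nearest Calu3 BRD8 summit and 161 kb from the nearest CTCF summit.

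The strongest Calu3 BRD8 peaks of the arm were 5 sites also called in 16HBE14o-, each with a CTCF peak. The first lay in 6q13 (chr6:73121955-73122215, signal 154.2, percentile 99.0); it ranked 156 in 16HBE14o- and 5618 in CTCF, with BRD8 and CTCF summits 36 bp apart. The second, in 6q27 (chr6:166689230-166689450, rank 300), ranked 129 in 16HBE14o- and 564 in CTCF and had the highest summed percentile of the 3 lists on the arm. The third, in 6q21 (chr6:107996552-107996684, rank 340), met a 16HBE14o- peak of rank 8667 only, with summits 169 bp apart. The next, in 6q25.2 (chr6:154996853-154997010, rank 348), ranked 123 in 16HBE14o-. The last, in 6q23.2 (chr6:133089105-133089580, rank 363), ranked 3230 in 16HBE14o- and touched a CTCF peak near the bottom of its list (rank 16404) with summits 214 bp apart. So 3 of these 5 were also among the 5 strongest 16HBE14o- peaks of the arm, and the 6q21 and 6q23.2 sites stood far lower in the 16HBE14o- list.

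In 16HBE14o- the strongest BRD8 peak of the arm was not called in Calu3. It lay in 6q23.2 (chr6:131949386-131949609, signal 90.02, rank 55), over a CTCF peak at percentile 90.2 with summits 18 bp apart, and 652 kb from the nearest Calu3 BRD8 summit. The second, in 6q25.3 (chr6:159125293-159125516, rank 95), sat on the strongest CTCF peak of the arm (signal 249.9, rank 250), with summits 2 bp apart, and met a Calu3 BRD8 peak of rank 2900. The next 3 were the 6q25.2, 6q27 and 6q13 sites above, at ranks 123, 129 and 156. The second strongest CTCF peak, in 6q15 (chr6:90142665-90142923, signal 226.1), carried 16HBE14o- BRD8 of rank 516 and no Calu3 BRD8. The next 3 lay in 6q27 (chr6:169284809-169285064), 6q21 (chr6:106808284-106808658) and at the 6q27 site of rank 300, and carried BRD8 in both lines. The remaining site among the 5 of highest summed percentile lay in 6q23.3 (chr6:137113903-137114378), with percentiles of 79.6 in Calu3, 93.9 in 16HBE14o- and 91.2 for CTCF.

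Sites of 1 line were sought as BRD8 peaks with no summit of the other line within 1 kb. There were 282 of 355 such peaks in 16HBE14o- (79.4%, against 55.3% over the list) and 27 of 112 in Calu3 (24.1%, against 47.8%). Of the 282, 23 were in the strongest decile of the list (8.16%, against 4.61% of all such 16HBE14o- peaks) and 79 met CTCF (28.0%, against 49.2%). Of the 27, 1 was in the strongest decile (3.70%, against 3.89% of all such Calu3 peaks) and 9 met CTCF (33.3%, against 55.1%). After the 6q23.2 peak, the strongest in 16HBE14o- lay in 6q24.3 (chr6:148785975-148786198, rank 293, 95 kb from the nearest CTCF summit), 6q24.1 (chr6:139309419-139309642, rank 361), 6q23.2 (chr6:134158972-134159195, rank 379) and 6q25.3 (chr6:157695815-157696038, rank 381), the last 3 over CTCF peaks. The 6q24.1 peak was also the strongest 16HBE14o- BRD8 peak in the bin with the largest difference in numbers (136 to 141 Mb, 8 Calu3 and 35 16HBE14o- peaks), and its summit lay 1 bp from that of CTCF. In Calu3 the strongest such peak lay in 6q23.2 (chr6:132600986-132601127, rank 374) and met no CTCF peak, with a CTCF summit 0.226 kb away. The next were in 6q16.3 (chr6:101105564-101106039, rank 2241), 6q26 (chr6:161919420-161919895, rank 3023), 6q22.1 (rank 3147, described above) and 6q25.3 (chr6:160559230-160559705, rank 3301), and none of these met CTCF. The bin in which Calu3 had more peaks, from 91 to 96 Mb, held a single BRD8 peak (chr6:91188951-91189426 in 6q15, percentile 60.2), 509 kb from the nearest summit of either other list.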

How the data were processed

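Each of the 3 narrowPeak lists of ChIP-seq peaks, on build hg19 per the file headers, was made by the authors from 2 replicates by the irreproducible discovery rate, per the series' design text. Whether the replicates were separate cultures, and the aligner, peak caller, control library and thresholds, are not given in the sources used here. The deposited signal ranks the peaks of a list. The deposited scores (the score column and the column for q-values) and the placeholder of -1 in the p-value column were not used. A deposited offset from the peak's start (other values, in column 10) places the summit.

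Overlap meant at least 1 shared bp. The code ran under Python 3.11.15 and was checked on simulated data; it used scipy 1.17.1 for the intervals, beside pandas 2.3.3 and numpy 2.4.6. Bands came from circlize 0.4.16, and figures from matplotlib 3.10.9. No test was run: each experiment is 1 pooled list, and peaks are not replicates. The arm, the measures and the lists were chosen with earlier results of these data known. Peaks were named by rule: the 5 of highest signal in each list, the 5 of highest summed percentile, the 5 strongest of 1 line with no BRD8 summit of the other line within 1 kb, and the strongest in the bins of largest and smallest difference. All peaks of Calu3 BRD8 from 116 to 131 Mb, and the strongest there of the other lists, were named after their values were seen. Gene loci and a CTCF motif search were planned and not run, for want of a genome and annotation on hg19; no sequences are shown for the same reason.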

Additional observations from a re-analysis of the deposited data

How the results depend on the processing

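The 6 overlap shares kept their side of the whole-list share under 5 other settings. A reciprocal overlap of at least 50% says nothing about BRD8 between the lines. The usual peaks of 476 bp in Calu3 and 224 bp in 16HBE14o- cannot meet it. It left 4.46% of Calu3 peaks (4.37% over the list) and 1.41% of 16HBE14o- peaks (4.44% over the list). For the pairs with CTCF it kept the side. It gave 37.5% for Calu3 BRD8 at CTCF (41.9% over the list) and 17.6% for CTCF at Calu3 BRD8 (24.5%). With summits within 100 bp, 59.8% of Calu3 BRD8 peaks met 16HBE14o- (39.3% over the list) and 50.9% met CTCF (54.8%). The upper 50% of each list held 49, 183 and 109 peaks of Calu3 BRD8, 16HBE14o- BRD8 and CTCF on the arm. There 65.3% of Calu3 BRD8 met 16HBE14o- and 42.9% CTCF, 31.1% of 16HBE14o- BRD8 met CTCF, and 19.3% of CTCF met Calu3 BRD8. With lists of equal length the arm had 126 CTCF peaks, as fewer CTCF peaks enter by construction. There 42.3% of Calu3 and 24.5% of 16HBE14o- BRD8 peaks met CTCF (55.1% and 50.9% over the lists). Of CTCF peaks, 32.5% met BRD8 in Calu3 and 69.0% in 16HBE14o- (47.4% and 50.9% over the list). The 16HBE14o- share was larger in 11 of 11 bins of 10 Mb and in 36 of 44 bins of 2.5 Mb. The ratio of list shares ran from 2.81, without the 116 to 131 Mb bins (added after seeing the data), to 3.84. No paired analysis was possible because the lists pool their replicates, and for the same reason no replicate could be left out.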
